A study of Mastomys natalensis with 4 samples.

Results

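Antioxidant enzymes and metallothioneins were followed in stomach mucosa of the African rodent Mastomys natalensis during treatment with loxitidine (also written loxtidine), which blocks histamine H2 receptors and so lowers gastric acid. The list names 10 genes: Gsr, Prdx1, Prdx2, Prdx6, Gpx1, Sod1, Sod2, Cat, Mt1 and Mt2. Its members were all probe sets that the platform annotation assigns to exactly 1 of these symbols, which gave 11 of the 12488 probe sets on the array, for 8 of the 10 genes. Prdx1 is named only on 2 probe sets that carry a further gene symbol, and no probe set is named Prdx6 here, so neither gene has a value.

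Total RNA from 4 samples was hybridised to Affymetrix mouse U74 arrays. There were 2 samples after 8 weeks of loxitidine, a stage described as hyperplasia of the enterochromaffin-like (ECL) cells, endocrine cells that release histamine to stimulate acid secretion, and 2 samples after 16 weeks, described as ECL cell neoplasia. All 4 samples had received the drug, so the comparison is between 2 stages of treatment (untreated mucosa was not analysed here). Time on the drug and lesion stage cannot be told apart, and the labels used here give no age, sex or strain and leave unsaid whether separate animals were used within a group. The tissue is bulk mucosa, in which fewer cells of a type and less RNA per cell cannot be told apart. Mouse probes were used on RNA of another genus, so each probe set was compared with itself between arrays. Ratios and sums over different probe sets, given below, are read only for their change between arrays.

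Superoxide, a by-product of respiration and of inflammatory cells, is converted to hydrogen peroxide by the superoxide dismutases. Hydrogen peroxide is then removed by catalase, by glutathione peroxidases and by peroxiredoxins. Glutathione peroxidases use up reduced glutathione, which glutathione reductase restores with NADPH, and peroxiredoxins are recharged by thioredoxin. Metallothioneins are small cysteine-rich proteins that bind zinc and copper and can also scavenge oxidants, and their genes are known to respond to metals and to glucocorticoids. Acid-secreting mucosa is rich in mitochondria, which are a main site of superoxide formation.

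The arrays had median intensities of 15.4 and 17.3 at 8 weeks and of 19.2 and 18.9 at 16 weeks. Values under a floor of 12.15, the median over the arrays of each array's 40th percentile, were raised to it. Probe sets above it on at least 2 arrays were tested with limma, 7883 in all. The defining parietal cell transcript Atp4a, of the proton pump, read 4034 to 5304 over the 4 samples, whereas Hdc, which makes histamine in ECL cells, read 4.9 to 7.8, under the floor on every array. Of the members, 8 probe sets of 7 genes were tested, each above the floor on all 4 arrays. The other 3 lay under the floor on every array: the single Sod2 probe set, at 4.2 to 7.5, a Cat probe set at 1.8 to 3.4 and a Prdx2 probe set at 0.8 to 1.7. Such readings show only a signal too dim to measure, not that the transcript was absent.

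At 16 weeks the members differed from 8 weeks in both directions. Gsr, Gpx1 and Cat read higher in both 16-week samples than in either 8-week sample, while Prdx2 on its brightest probe set, Sod1, Mt1 and, by a margin of 0.1 intensity units, Mt2 read lower. The median log2 difference, 16 weeks minus 8 weeks, over the 7 genes was -0.062, beside 0.071 over the 5864 genes tested. Of the 7, 3 were higher, or 42.9%, beside 55.3% of all genes tested. None of the 8 member probe sets passed limma's test at a Benjamini-Hochberg adjusted p of 0.05, nor did any other probe set, so the background of calls was 0%. At an unadjusted threshold of 0.05, 2 of the 8 passed (Gsr and the brighter Prdx2 probe set), against 14.0% of all tested probe sets. The groups did not overlap for 3 member probe sets that were higher and 4 that were lower, beside 28.7% and 20.6% of all tested probe sets. With 2 samples per group the number of arrays limits the precision, and the smallest 2-sided p of an exact permutation test is 0.333.

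**Figure D1:**
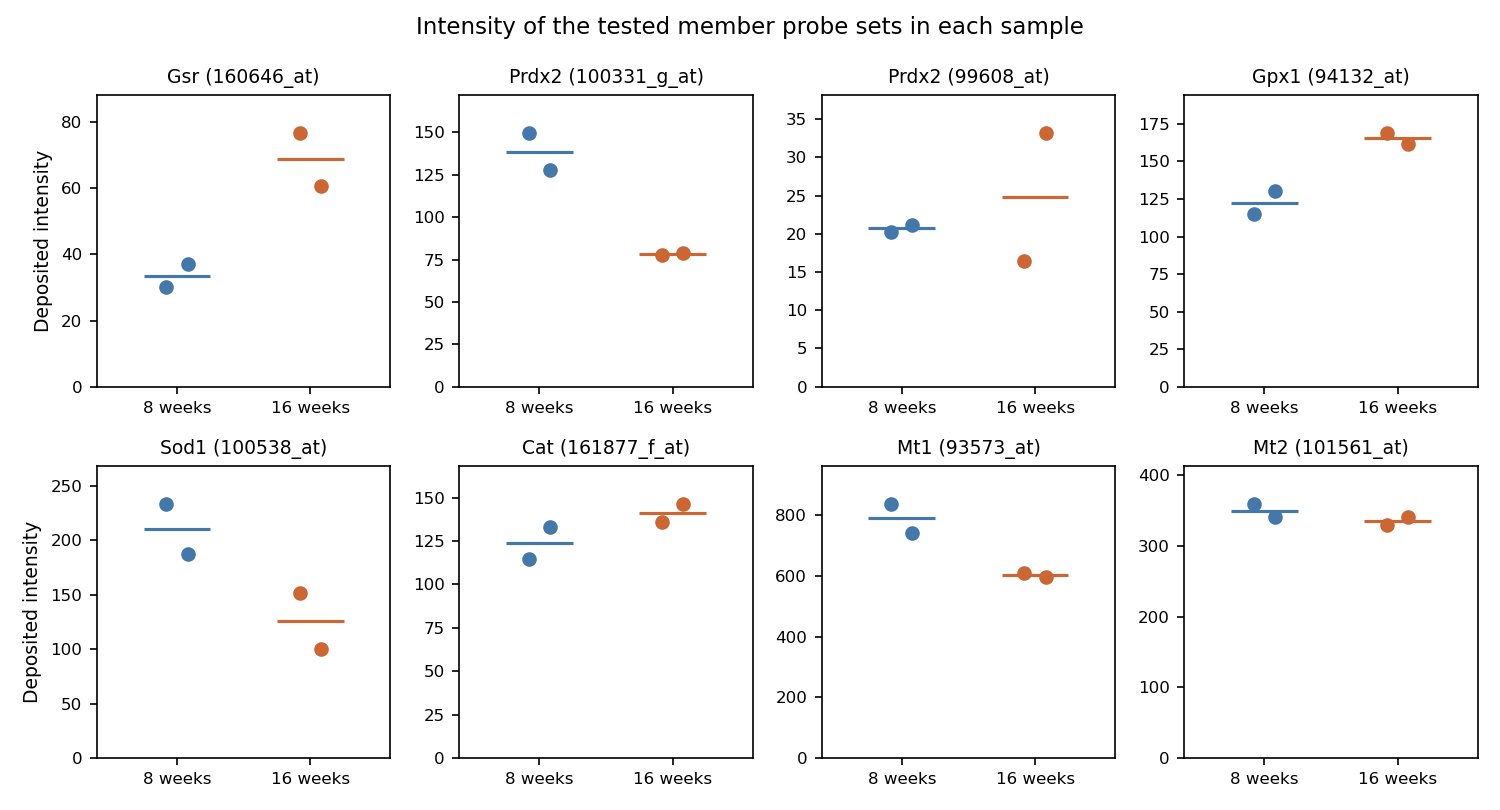
Deposited intensity (linear axis from 0) of each tested member probe set; points are samples and horizontal lines the means of the 2 samples at 8 weeks (blue) and 16 weeks (orange). Gsr reads 30.1 and 37.1 against 76.7 and 60.8, whereas the points for Mt2 lie close together at 330 to 359.

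Sod1 encodes the copper- and zinc-containing superoxide dismutase of the cytosol. The 8-week samples gave 233 and 187, the 16-week samples 151 and 100. The groups did not overlap, but the 16-week samples differed from each other by 1.51-fold, more than the closest samples of the different groups (1.24-fold). The log2 difference was -0.76 ± 0.31 (SE, n = 2 per group), or 1.70-fold, with a limma adjusted p of 0.364 and a 95% interval from -1.56 to 0.035. With 16-week sample 1 left out it was -1.06, and with 16-week sample 2 left out -0.47. For Sod2, the manganese enzyme of mitochondria, no difference can be given.

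Among the enzymes that remove hydrogen peroxide, Gpx1 and Prdx2 lay on opposite sides. Gpx1, the selenium-dependent glutathione peroxidase of the cytosol, gave 115 and 130.0 in the 8-week samples and 169 and 162 in the 16-week samples. The 2 groups did not overlap, and samples within a group differed by at most 1.13-fold. The log2 difference was 0.44 ± 0.24 (1.35-fold; limma adjusted p = 0.446), with a 95% interval from -0.17 to 1.04.

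Prdx2, a peroxiredoxin that is abundant in red blood cells and present in most tissues, has 3 probe sets. The brightest (100331_g_at) gave 150 and 128 in the 8-week samples and 77.5 and 79.0 in the later ones, so that both 16-week samples were 1.62 to 1.93 times dimmer than the 8-week samples. Its log2 difference was -0.82 ± 0.24 (limma adjusted p = 0.325; 95% interval -1.44 to -0.21). The second (99608_at) read 20.3 and 21.2 against 16.4 and 33.2, with overlapping groups and a difference of 0.17 ± 0.39. Its direction rested on 16-week sample 2, without which the difference was -0.34. The second probe set thus did not repeat the clear gap of the brightest. Its 95% interval, from -0.84 to 1.18, still includes the -0.82 of the brightest. The suffix of the brightest marks probes that related sequences may share.

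Catalase (Cat), the peroxisomal enzyme that splits hydrogen peroxide into water and oxygen, gave 115 and 133 in the 8-week samples and 136 and 146 in the 16-week samples on the probe set that was bright enough. The highest 8-week and the lowest 16-week samples were only 1.02-fold apart, less than the 1.16-fold between the 8-week samples. The log2 difference was 0.19 ± 0.24 (limma adjusted p = 0.722), with a 95% interval from -0.42 to 0.81. Leaving out 8-week sample 1 made it 0.084, and leaving out 8-week sample 2 made it 0.30. The suffix of this probe set (161877_f_at) marks probes that may also match related sequences.

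Gsr, the glutathione reductase that returns oxidised glutathione to its reduced form, had the largest difference of the 7 genes. The 8-week samples gave 30.1 and 37.1, and the 16-week samples were both higher at 76.7 and 60.8. Every 16-week sample was between 1.64 and 2.55 times as bright as every 8-week sample, while samples of a group differed by 1.23-fold and 1.26-fold. The log2 difference was 1.03 ± 0.27, or 2.04-fold (limma adjusted p = 0.309; 95% interval 0.34 to 1.72). Of all tested probe sets, 96.5% had a lower difference. With any 1 of the 4 samples left out the difference lay between 0.86 and 1.20.

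The 2 metallothioneins, Mt1 and Mt2, are the widely expressed members of their family. Mt1 gave 836 and 743 in the 8-week samples and 609 and 595 in the 16-week samples, a log2 difference of -0.39 ± 0.24 (1.31-fold; limma adjusted p = 0.483; 95% interval -0.99 to 0.21). Both 16-week samples lay below both 8-week samples, at least 1.22-fold apart, and samples within a group differed by at most 1.13-fold. Mt2 read 359 and 340.4 against 329.6 and 340.3, a difference of -0.062 ± 0.23 (limma adjusted p = 0.907). Its 95% interval, from -0.65 to 0.53, leaves room for a change of either sign. Mt2 was the steadiest of the tested members, with no more than 1.09-fold between any 2 samples of different groups. The brain-enriched family member Mt3, not on the list of 10, read 171 and 246 against 190 and 152, with overlapping groups.

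Brighter probe sets lay lower at 16 weeks in general, and 6 of the 8 tested member probe sets belonged to the brightest of 4 equal groups. In that group the median log2 difference was -0.13 and 60.4% of probe sets were lower, against 0.19 and 32.8% in the dimmest group. The Prdx2 (-0.82) and Sod1 (-0.76) differences were farther from 0 than this median, with only 5.63% and 6.72% of all tested probe sets below them, whereas Mt2 lay near it. Mt1, brighter than 98.7% of tested probe sets, had 19.7% of all tested probe sets below it. No such share was computed among probe sets of like brightness. The part of brightness in the member differences was not tested.

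**Figure D2:**
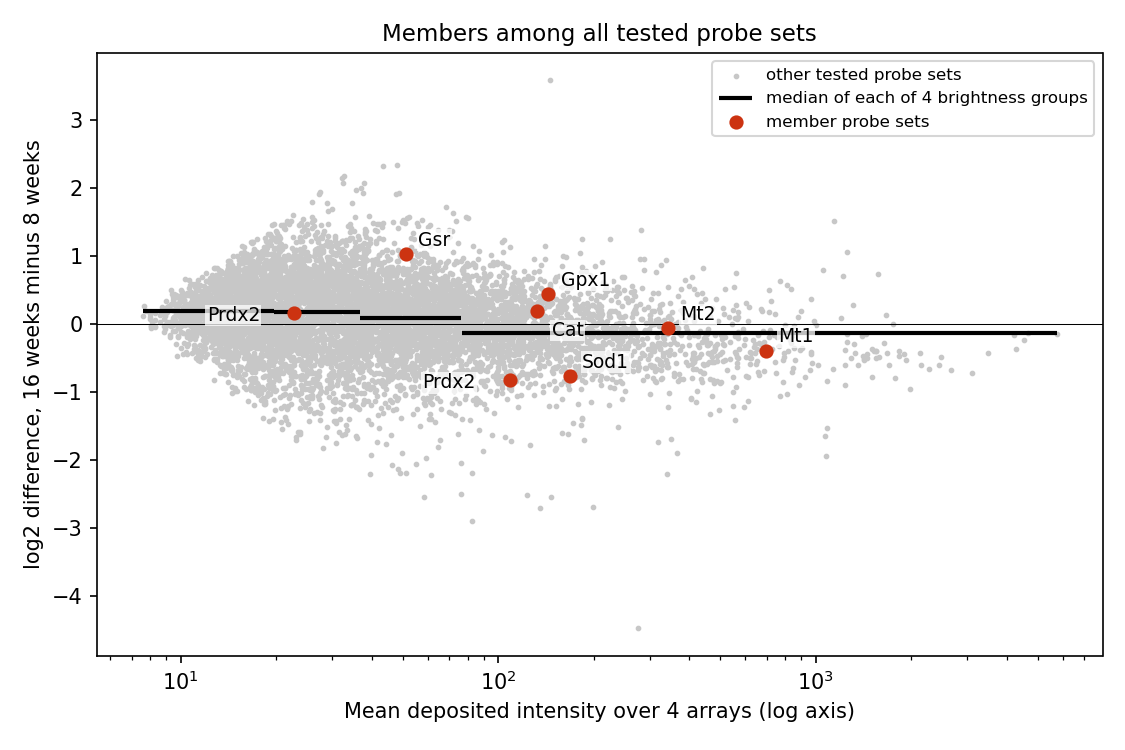
Log2 difference (16 weeks minus 8 weeks) against mean intensity over the 4 arrays (log axis) for all 7883 tested probe sets in grey and the 8 member probe sets in red; black bars are medians of 4 equal brightness groups. Gsr lies above the cloud's centre at 1.03, and Sod1 and the brighter Prdx2 probe set lie below it, while the group medians run from 0.19 to -0.13.

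The scale of the arrays mattered for the members with small differences. On the deposited scale the bacterial hybridisation controls, which are added to each sample in known amounts, gave a mean log2 difference of -0.53. With the arrays aligned on these controls the median over all tested probe sets moved from 0.086 to 0.55, and scaling every array to the same median gave -0.11. Gsr stayed higher in these settings and after quantile normalization (0.81 to 1.56), as did Gpx1 (0.21 to 0.97). Sod1 stayed lower (-0.99 to -0.24), and so did the brighter Prdx2 probe set (-1.04 to -0.29). Mt1 turned to 0.14 and Mt2 to 0.47 on the control scale, Mt1 shrank to -0.092 and Mt2 turned to 0.21 after quantile normalization, and Cat to -0.031 on the common median. Taken relative to the median of all tested probe sets under each of the 4 scalings, Gsr lay at 0.92 to 1.01, Gpx1 at 0.33 to 0.52 and Cat at 0.081 to 0.24. On that relative scale Sod1 lay at -0.88 to -0.67, the brighter Prdx2 probe set at -0.93 to -0.80 and Mt1 at -0.50 to -0.11, and Mt2 changed sign (-0.17 to 0.19).

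**Figure D3:**
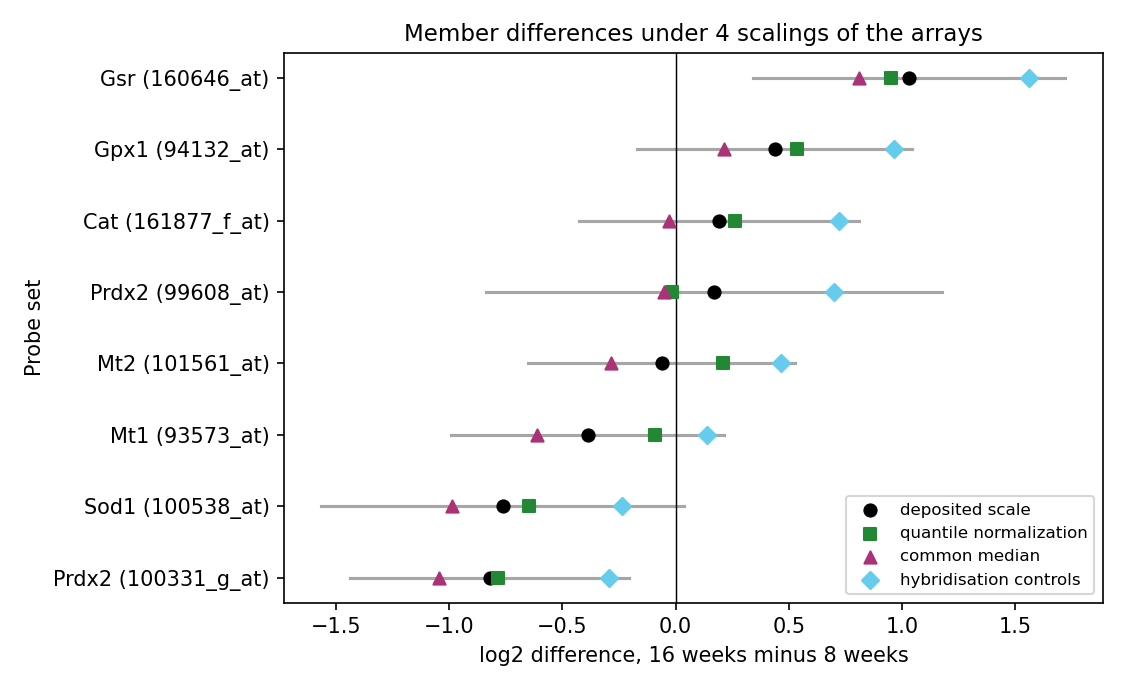
Log2 difference of each tested member probe set on the deposited scale and under 3 other scalings of the arrays; grey lines are limma's 95% intervals on the deposited scale. Gsr and Gpx1 stay above 0 and Sod1 and Prdx2 (100331_g_at) below 0 under all 4, while Mt1, Mt2, Cat and Prdx2 (99608_at) fall on both sides.

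A ratio of 2 probe sets on the same array does not change when the whole array is multiplied by a constant. It can change under quantile normalization, and a difference that varies with brightness stays in it. The size of a ratio has no meaning across genes, and only its change can be read. Of the 21 pairs among the 7 genes, 20 had ratios that did not overlap between the groups, beside 48.5% of all pairs among the 5864 tested genes, in either direction. The 21 pairs share 7 probe sets and are not independent. All 7 probe sets already had groups without overlap, 3 of them higher and 4 lower. A ratio between a higher and a lower one therefore could not overlap. Such pairs raise the count without adding to the readings of the single genes. Prdx2 stands here for its brightest probe set (100331_g_at). With the second one (99608_at), 1 of the 6 pairs with the other members did not overlap. The widest of the 21 was Gsr over Prdx2, with 0.201 and 0.290 in the 8-week samples and 0.990 and 0.770 in the 16-week samples, 3.61-fold apart. Taken the other way round, the second Prdx2 probe set over Gsr read 0.674 and 0.571 against 0.214 and 0.546. There the groups were only narrowly apart. Prdx2 over Gpx1, both peroxide-removing enzymes, read 1.30 and 0.983 against 0.459 and 0.488, 2.39-fold lower. With the second Prdx2 probe set the same ratio read 0.177 and 0.163 against 0.0971 and 0.205, and the groups overlapped. Gpx1 over Sod1, the step that removes peroxide over one that makes it, read 0.492 and 0.695 against 1.12 and 1.62, 2.30-fold higher. Gsr over Gpx1, which restore and use up glutathione, differed less, by 1.51-fold. Mt1 over Mt2 went from 2.33 and 2.18 to 1.85 and 1.75, 1.25-fold lower, while limma's intervals for the 2 genes overlapped widely. The exception was Prdx2 over Sod1, at 0.642 and 0.683 against 0.513 and 0.790, where the groups overlapped. No test was made of these ratios.

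**Figure D4:**
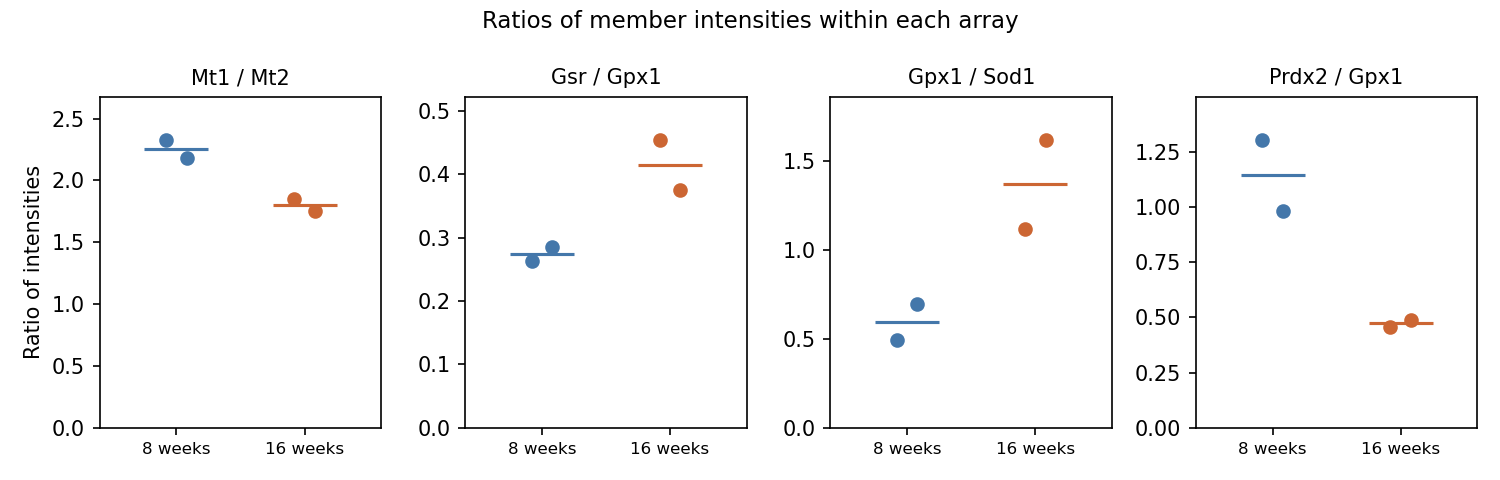
Ratio of the intensities of 2 member probe sets within each array (linear axis from 0), with points for samples and lines for the means of the 2 samples per group. Mt1 over Mt2 and Prdx2 (100331_g_at) over Gpx1 are lower in both 16-week samples than in both 8-week samples, and Gsr over Gpx1 and Gpx1 over Sod1 are higher.

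Genes that work with the members were taken from a list of 48 glutathione, thioredoxin, haem and metal-handling genes. Of these, 37 had a probe set with 1 symbol and 33 were tested. In limma's test 0 of the 33 passed in either direction. At 16 weeks 12 were higher (36.4%, beside 55.3% of all genes tested) and 21 lower. The median difference was -0.27, beside 0.071 over all genes tested. Since brighter probe sets lay lower in general, brightness may enter these counts, and its part was not tested. At an unadjusted threshold of 0.05, 4 passed (12.1%, beside 13.4% of all genes tested). The groups did not overlap for 5 genes that were higher and 10 that were lower (15.2% and 30.3%, beside 27.6% and 21.1% of all genes).

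Both subunits of the enzyme that starts glutathione synthesis were lower. The catalytic subunit Gclc gave 55.6 and 49.5 in the 8-week samples and 32.3 and 26.1 in the 16-week samples (-0.85 ± 0.25, limma adjusted p = 0.326). The modifier subunit Gclm read 34.6 and 32.6 against 18.8 and 23.1 (-0.69 ± 0.25, limma adjusted p = 0.349). The readings for both subunits of this first synthesis enzyme and for Gsr, the recycling enzyme of glutathione, thus lay in opposite directions, though none passed the test. Gpx2, the glutathione peroxidase of gastrointestinal epithelium, read 638 and 576 against 415 and 417 (-0.54 ± 0.23), opposite to Gpx1. Pgd, which makes NADPH in the pentose phosphate pathway, gave -0.49 ± 0.23 on its brightest probe set and 1.16 on a dimmer one.

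On the thioredoxin side, Txn1, the thioredoxin that recharges peroxiredoxins, gave 1174 and 1147 in the 8-week samples and 798 and 762 in the 16-week samples (-0.57 ± 0.23). Srxn1, which repairs over-oxidised peroxiredoxins, read 30.9 and 45.6 against 79.6 and 76.7 (1.06 ± 0.29, limma adjusted p = 0.320). That probe set has a reduced set of probes by its suffix, and the second Srxn1 probe set read 12.5 and 5.3 against 3.2 and 2.9, mostly under the floor. Haem oxygenase 1 (Hmox1), a stress-induced enzyme that degrades haem, read 105 and 129 against 177 and 197 (0.69 ± 0.25). Ferritin heavy chain (Fth1), which stores iron, read 4571 and 3180 against 2627 and 2044 (-0.72 ± 0.30; -0.33 on a second probe set). Without 8-week sample 1 the Fth1 difference was -0.46. Nfe2l2, the transcription factor NRF2 that drives many of these genes, read 95.7 and 157 against 90.0 and 135, with a wider gap within each group than between them. Of the 8 genes chosen by smallest p without overlap (all those above but Nfe2l2), Pgd alone changed sign under the 3 other scalings, to 0.038 on the hybridisation controls. The lower readings were smaller on that scale: Gclc gave -0.33, Gclm -0.16, Txn1 -0.046, Gpx2 -0.016 and Fth1 -0.19. After quantile normalization Txn1 gave -0.20, Gpx2 -0.20 and Fth1 -0.18, whereas Gclc gave -0.95 and Gclm -0.85. Hmox1 gave 1.22 on the controls, and Srxn1 1.59.

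**Figure D5:**
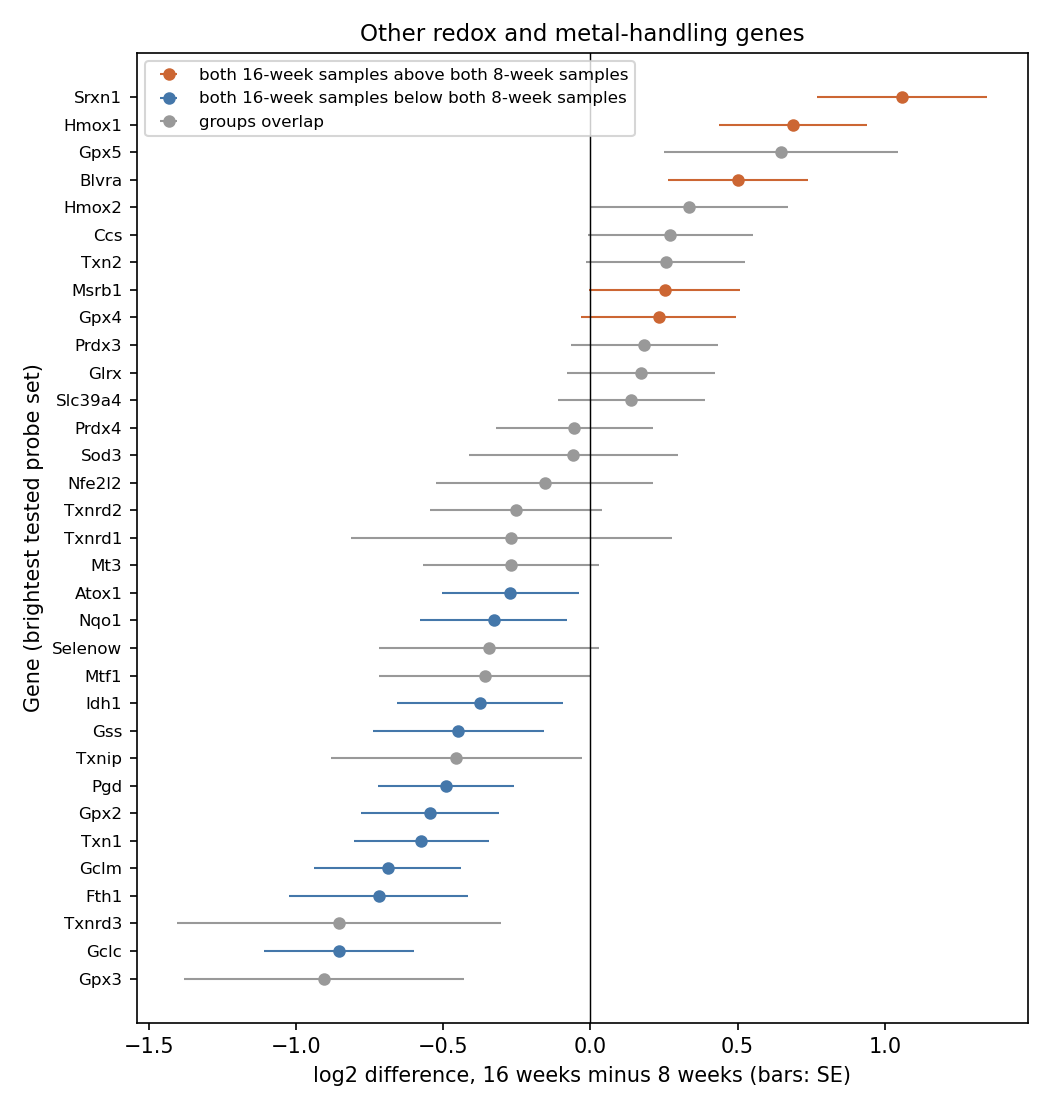
Log2 difference (16 weeks minus 8 weeks) with its SE for the 33 tested genes that work with the members; colour shows whether the 2 samples of each group overlap. Srxn1 and Hmox1 lie highest among genes without overlap (1.06 and 0.69), and Gclc and Fth1 lowest (-0.85 and -0.72).

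Markers of other cells in the sampled tissue differed between samples as well. The summed intensity of 7 smooth muscle genes was 3332 and 2864 in the 8-week samples and 1747 and 1677 in the 16-week samples, with 6 of 7 lower and none under the floor throughout. For ECL and endocrine cells the sum of 5 genes was 385 and 457 against 555 and 521 (Hdc under the floor), with 3 of 4 tested genes higher. Of the 3, Cckbr and Scg2 read higher in both 16-week samples. Chga overlapped between the groups, at 141 and 242 against 299 and 231. Chgb was the lower gene, at 101 and 61.7 against 51.5 and 64.2. The sum of 7 intestinal genes was 1130 in 8-week sample 1 and 130 to 206 in the other samples. Cdx1 and Cdx2 lay under the floor on every array, and 0 of 4 tested genes were higher. For 4 pancreatic acinar genes the sum was 3443 and 746 against 2052 and 6356, with overlapping groups and 4 of 4 genes higher. For 7 squamous forestomach genes it was 417 and 370 against 228 and 956 (Krt5 under the floor), with 3 of 4 tested genes higher. Red blood cells, rich in Prdx2, Gpx1, Cat and Sod1, gave a sum over 5 genes of 191 and 227 against 236 and 214, with overlapping groups, 2 of 4 tested genes higher and Epb42 under the floor. Parietal cell genes, 6 in number, summed to 7184 and 9250 against 7471 and 6666, also with overlap and with 3 of 6 higher. Hepatocyte genes, 7 in number, summed to 515 and 287 against 290 and 261 (Fgb under the floor), with 3 of 6 tested genes higher. Of the 515 in 8-week sample 1, Apoa1 gave 267, beside 11.6 to 15.6 in the other samples. The sum of 6 macrophage and neutrophil genes was 190 and 173 against 146 and 179 (S100a9 under the floor), with 2 of 5 tested genes higher. The part of any of these cells in the member differences was not tested.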

How the data were processed

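The deposited table holds an intensity for each of 12488 probe sets on 4 arrays, on a linear scale. The steps by which the authors made these deposited intensities, and any scaling between arrays, are not given in the sources used here. Values were kept as deposited. Gene names came from the platform annotation, in which 10833 probe sets carry 1 symbol. A gene with several probe sets was represented by its brightest tested one wherever genes are counted. Differences were fitted with lmFit and eBayes of limma 3.58.1 in R 4.3.3 on log2 of the floored intensities, and Benjamini-Hochberg adjustment ran over the 7883 probe sets tested. SEs and intervals are limma's. Since separate animals are not stated, p-values reflect only the variation among these samples, possibly technical. The code was tested on simulated data. Values are given for the 8 of 10 members with a probe set of 1 symbol; from the list of 48 related genes the text names up to 8, those with the smallest p without overlap of the groups, besides Mt3 and Nfe2l2, named after their values were seen. The ratios were also chosen then. Members and lists were chosen with earlier results of these data known. Replicate numbers have no stated meaning. Alternatives were a lower floor (20th percentile, 5.05), a pseudocount of 16 in place of the floor, no filter, 3 other scalings, each sample left out, the replicate number as a block, and other probe set choices.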

Additional observations from a re-analysis of the deposited data

How the results depend on the processing

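No member probe set passed limma's adjusted threshold under any alternative tried, nor did any gene of the related list, and the count of members called stayed at 0. The median over the 7 members was -0.062 and depended on the scale. It was 0.21 after quantile normalization, -0.28 on a common median and 0.47 on the hybridisation controls, where 5 of the 7 genes were higher. The median over all genes tested moved too, from 0.071 to 0.016, -0.13 and 0.54 in the same order. The share of all genes higher on the control scale was not computed. The member median was 0.054 over the 6 genes left without probe sets of shared or reduced probes, an alternative chosen after seeing the data. With a sample left out the member median was -0.10 to -0.023. Signs changed for Mt2 (0.21 after quantile normalization, 0.47 on the controls), Mt1 (0.14 on the controls), Cat (-0.031 on the common median), Pgd (0.038 on the controls) and the dimmer Prdx2 probe set (-0.017 after quantile normalization, -0.053 on the common median, -0.34 to 0.68 with a sample left out). Beyond the construction of each scaling, the cause was not tested. Deviations of same-numbered samples correlated at -0.050 over the tested probe sets. With 2 samples per group, this cannot tell whether the numbers pair the samples. With the replicate block the median difference stayed at -0.062 and 0 members were called. Dimness limits Sod2 and 2 further probe sets, which gave no difference.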
